A study of Mus musculus with 12 samples.

Results

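The genes described here are 8 that fill, empty and gauge the calcium store of the endoplasmic reticulum: the IP3 receptors Itpr1, Itpr2 and Itpr3, the ryanodine receptors Ryr2 and Ryr3, the SERCA pump Atp2a2 and the calcium sensors Stim1 and Stim2. They are 8 of the 19312 genes of the expression table, taken by symbol. The set was chosen by family, but also because Itpr3 was already seen to be higher in KO mice and lower after memantine in these mice, so the values of Itpr3 are a description and carry no test. All 8 genes passed the filter on low values.

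RNA-Seq was performed on 12 male mice at postnatal day 25, with 3 mice in each of 4 groups and no pooling of brains. WT-Veh and WT-Mem were wild-type mice, and KO-Veh and KO-Mem carried a homozygous germline deletion of Shank2 exons 6 and 7. The strain was C57BL/6N. Memantine, a blocker of open NMDA receptor channels, was given by mouth at 20 mg/kg, 2 times a day from postnatal day 7 to 21, in 0.1% saccharin, and the Veh groups received 0.1% saccharin alone. The tissue is whole brain by the labels but, by the methods, forebrain left after the cerebellum and the brain stem below it were removed. The deletion is in every cell, the tissue is a mixture of cell types, and fewer cells of a type cannot be told apart from less RNA per cell. Values are normalized counts, that is, gene counts estimated from reads and scaled between mice by the authors.

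As background, a Gq-coupled receptor such as a group I metabotropic glutamate receptor activates phospholipase C, which makes IP3. IP3 opens the IP3 receptors of the endoplasmic reticulum and releases stored calcium, and calcium itself opens ryanodine receptors. SERCA pumps return calcium to the store, and STIM proteins sense a drop in the store and open Orai channels of the plasma membrane. Itpr1 is the main IP3 receptor of neurons and is very abundant in cerebellar Purkinje cells, Itpr2 is known from astrocytes, and Itpr3 is best known from epithelial and taste cells.

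Shank2 itself read 7156 to 8548 in the 6 WT mice and 2706 to 3178 in the 6 KO mice, with no overlap, as the labels say. The whole-table sums ran from 30373849 to 31199251 per mouse after the authors' scaling and are not depths. KO-Veh replicate 3 stood apart by its cerebellar genes. All 6 granule cell markers and 5 of 6 Purkinje cell markers, with Calb1 as the exception, were highest in it. The summed granule cell markers were 2705 in this mouse and 446.2 to 559.4 in the other 11, and the summed Purkinje cell markers were 5280 against 3580 to 4300. Gabra6, a GABA-A receptor subunit of granule cells, was 253.9 in it and at most 12.88 elsewhere, and was listed at 0 in some mice. The KO-Veh to WT-Veh ratio of each of the 8 genes is therefore given with and without this mouse, and for the further genes of store calcium the calls are counted without it.

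**Figure D1:**
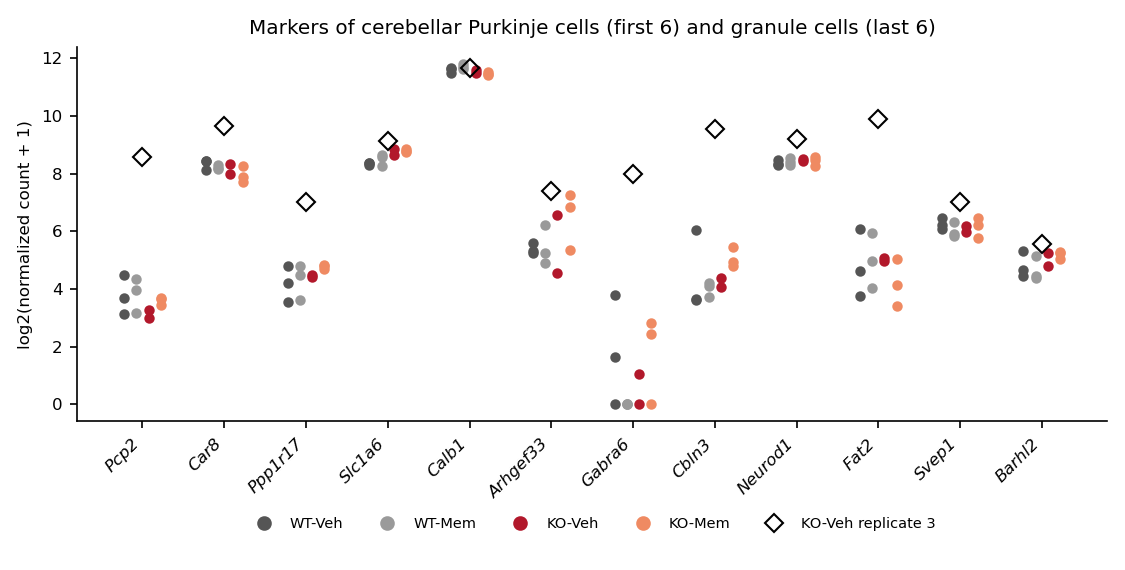
Each point is 1 mouse, as log2(normalized count + 1), for 12 cerebellar marker genes, with KO-Veh replicate 3 drawn as an open diamond and the other mice colored by group. KO-Veh replicate 3 lies above the other 11 mice for each marker but Calb1, with the widest gaps at Pcp2, Gabra6, Cbln3 and Fat2.

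The excitatory forebrain neuron markers were high in every mouse, with sums from 118278 to 141702. The summed astrocyte markers ran from 98532 to 114372. Several non-neuronal lists differed between genotypes. The summed oligodendrocyte precursor markers were 9168 to 9822 in the WT groups and 6650 to 8635 in the KO groups, a difference carried mostly by Gpr17. Pdgfra, the defining marker of these cells, overlapped, with 2005 to 2295 in WT and 1997 to 2324 in KO mice. The summed endothelial markers were 6404 to 6667 in WT-Veh, 5734 to 6190 in WT-Mem, 5246 to 5516 in KO-Veh and 5239 to 5879 in KO-Mem.

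Levels of different genes were compared per kb of the longest annotated transcript. Atp2a2 was the most abundant, with a mean of 5451 normalized counts per kb over 12 mice, a level above 98.8% of genes. Itpr1 followed with 1363, Stim1 with 724, Ryr2 with 450, Stim2 with 324, Ryr3 with 187, Itpr2 with 111 and Itpr3 with 34.9. Itpr3 was the least abundant of the 8, above 25.8% of genes, and its level per kb ran from 24.75 to 57.07. Neighbors in this order did not overlap in any of the 12 mice except Ryr2 (368.9 to 499.5) and Stim2 (259.1 to 383.4). Per kb of all annotated exons together, the order from the third place on was Stim2, Stim1, Ryr2, Ryr3, Itpr2 and Itpr3, so the places of Stim1, Stim2 and Ryr2 depend on the length used.

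**Figure D2:**
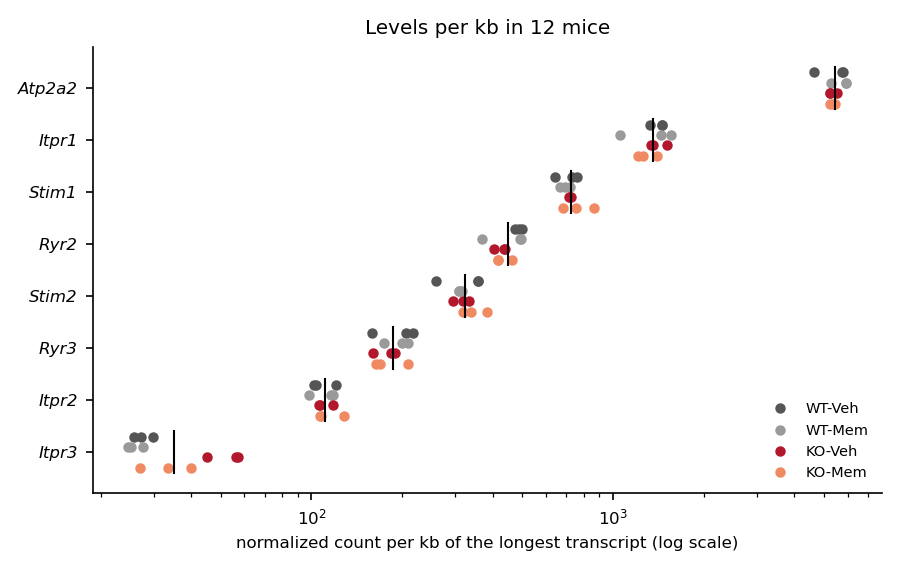
Each point is 1 mouse, as normalized count per kb of the longest transcript on a log axis, colored by group, and the black line is the mean of 12 mice. The 8 genes run from Atp2a2 at 5451 down to Itpr3 at 34.9, and Itpr3 has the widest relative spread.

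Itpr3 (ENSMUSG00000042644) lies on chromosome 17, from 27057304 to 27122223 on the plus strand (GRCm38), with 58 exons in its longest transcript. Its normalized counts in replicates 1 to 3 of WT-Veh were 231.7, 268.4 and 244.9, and WT-Mem had 248.1, 227.4 and 222.5. KO-Veh had 513.0, 403.9 and 504.3, and KO-Mem had 359.0, 300.5 and 242.7. All 3 KO-Veh mice were above the other 9 mice. In KO-Mem, 2 mice lay between the WT and KO-Veh mice and replicate 3 lay within the WT range.

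The group means of Itpr3 were 248 ± 18.6 in WT-Veh, 233 ± 13.6 in WT-Mem, 474 ± 60.6 in KO-Veh and 301 ± 58.2 in KO-Mem (SD, n = 3 each). KO-Veh was 1.91 times WT-Veh, with a log2 fold change of 0.92 (SE 0.12). KO-Mem was 1.29 times WT-Mem (log2 fold change 0.35, SE 0.15), or 0.22 without KO-Mem replicate 1. KO-Mem was 0.635 times KO-Veh (log2 fold change -0.66, SE 0.16). KO-Mem remained at 1.21 times WT-Veh. In WT mice, memantine gave a ratio of 0.937 (log2 fold change -0.09, SE 0.11). The genotype difference was smaller under memantine than under vehicle by 0.57 on the log2 scale (SE 0.20), given here as a description.

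The difference was about as large without KO-Veh replicate 3, the mouse with cerebellar markers. KO-Veh replicates 1 and 2 averaged 458.5, a ratio of 1.85 to WT-Veh, and the log2 fold change was 0.87. The KO-M/V difference was -0.61 without it. Summed choroid plexus markers were 11291 to 15682 in KO-Veh and 12658 to 14975 in WT-Veh, and ependymal markers 526.9 to 558.8 and 485.4 to 690.4. Ttr, with a mean of 12287, made up most of the choroid plexus sum. Kl, of the same list, was lower in KO-Veh (374.9 to 419.1) than in WT-Veh (428.5 to 485.4), and the rest of that list overlapped. In KO-Mem the choroid plexus sum ran from 7381 to 14252. The part of these cells in the Itpr3 values of KO-Veh and KO-Mem was not tested.

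Itpr3 varied by 34.0% (CV) over the 12 mice and by 12.5% within groups, and the other 7 genes by 6.65% to 11.3% over the 12 mice. Shares of the 3 IP3 receptor genes together were taken from normalized counts per kb of the longest transcript. By this measure Itpr3 made up 1.79% ± 0.152 in WT-Veh, 1.77% ± 0.284 in WT-Mem, 3.37% ± 0.413 in KO-Veh and 2.34% ± 0.500 in KO-Mem (SD, n = 3 each). Itpr1 made up 91.2% in WT-Veh and 89.6% in KO-Veh. Itpr3 was the smallest part of the family in every group.

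The region around the start of Itpr3 is shown next to that of Itpr2, the other IP3 receptor gene with a matched promoter sequence. Whether these sequences bear on the levels of either gene was not tested. RefSeq promoter sequences (GRCm38.p6, 250 bases before to 50 after the start) were matched for 5 of the 8 genes, Itpr2, Itpr3, Ryr2, Stim1 and Stim2. Capitals mark matches, on either strand, to the letters TATAAA of the TATA box, to GGGCGG for the GC box, to CCAAT for the CCAAT box, to CACGTG for an E-box and to TGACG for the core of the CRE. In the sequences shown no match overlaps another. The Itpr3 sequence is chr17:27057054-27057353 on the plus strand and the Itpr2 sequence is chr6:146502174-146502473 on the minus strand.
Itpr3: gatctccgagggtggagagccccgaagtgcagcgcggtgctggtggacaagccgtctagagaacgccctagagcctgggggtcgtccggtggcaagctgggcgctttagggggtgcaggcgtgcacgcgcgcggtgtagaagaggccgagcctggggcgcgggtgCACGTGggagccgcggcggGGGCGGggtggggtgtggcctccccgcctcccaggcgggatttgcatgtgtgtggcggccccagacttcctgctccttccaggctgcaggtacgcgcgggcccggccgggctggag
Itpr2: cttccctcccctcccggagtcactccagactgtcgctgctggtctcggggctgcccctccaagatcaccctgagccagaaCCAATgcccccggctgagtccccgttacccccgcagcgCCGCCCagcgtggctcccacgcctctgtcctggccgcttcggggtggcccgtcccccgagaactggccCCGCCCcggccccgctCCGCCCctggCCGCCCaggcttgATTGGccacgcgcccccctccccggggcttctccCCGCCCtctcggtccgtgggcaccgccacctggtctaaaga
The Itpr3 window held 1 GC box and 1 E-box, with 30 CpG and 72.3% G and C. The Itpr2 window held 5 GC boxes, 2 CCAAT boxes and no E-box, with 26 CpG and 73.3% G and C. Over 27025 promoters of this length, 35.9% held a GC box, 7.24% the E-box letters, 37.9% a CCAAT box, 21.0% the CRE core and 14.2% a TATA box, and the median was 52.7% G and C and 7 CpG. None of the 5 windows held a TATA box.

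The nearest tested gene on each side of Itpr3 was not called. Uqcc2, an assembly factor of mitochondrial complex III, ends 440 bp away on the other strand and had means of 976 ± 264 in WT-Veh and 746 ± 50.6 in KO-Veh (SD, n = 3 each), with an adjusted p of 0.328 (limma). Ggnbp1, 19680 bp before Itpr3, had means of 107 ± 18.2 and 103 ± 13.3 (adjusted p of 0.919, limma). An antisense gene, Itpr3os, lies inside Itpr3 and was not analysed here. Itpr3os spans only 27099658 to 27101440. The library kit does not mark strand, so strand cannot tell apart reads from any sequence that the 2 genes share.

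The genes whose log2 values followed Itpr3 most closely over the 12 mice, by Pearson's r among 14240 genes with a mean of at least 50, were Zfp772 (r = 0.908), Cp (0.886), Xrn2 (0.867), Wrn (0.865), Zfand1 (0.864), Pars2 (0.853), Carf (0.851), Vsig10 (0.843), Dhdh (0.842) and Adamtsl3 (0.836). These r values share the same libraries and the same 4 groups. Cp, which encodes the copper-binding ferroxidase ceruloplasmin, had means of 379 in WT-Veh, 353 in WT-Mem, 498 in KO-Veh and 436 in KO-Mem. Adamtsl3, an extracellular matrix protein gene, had means of 63.99, 49.18, 116.6 and 58.88 in the same order. By Spearman's rho, 4 of these 10 were among the 10 closest. No other of the 8 genes followed Itpr3, with r from -0.389 (Ryr2) to 0.285 (Stim1). The closest gene was Cdk19 for Itpr1 (r = 0.911), Zkscan1 for Itpr2 (0.891), Sbno1 for Ryr2 (0.964), Gpc1 for Ryr3 (0.880), Plppr5 for Atp2a2 (0.960), Frmpd1 for Stim1 (0.942) and Dctn4 for Stim2 (0.905).

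Itpr1 (chromosome 6, 108213096 to 108551109, plus strand) read 14347, 14340 and 13125 in the WT-Veh mice, 15424, 14201 and 10421 in the WT-Mem mice, 13215, 13428 and 14879 in the KO-Veh mice and 11915, 13807 and 12375 in the KO-Mem mice. The groups overlapped in each comparison, and KO-Veh was 0.993 times WT-Veh. The highest KO value was that of KO-Veh replicate 3, the mouse with the Purkinje cell markers, and without it the ratio was 0.956. The lowest value of all was that of WT-Mem replicate 3. Memantine gave a log2 difference of -0.13 in KO mice (SE 0.07, adjusted p of 0.588, limma), with a 95% interval from -0.28 to 0.03.

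Itpr2 (chromosome 6, 146108299 to 146502223, minus strand) read 1407, 1192 and 1214 in the WT-Veh mice, 1355, 1375 and 1148 in the WT-Mem mice, 1252, 1236 and 1380 in the KO-Veh mice and 1504, 1257 and 1249 in the KO-Mem mice. The ratios of the group means lay between 1.01 and 1.05, and every pair of groups compared overlapped. Without KO-Veh replicate 3 the ratio of KO-Veh to WT-Veh was 0.979. The Veh-K/W log2 fold change of 0.02 (SE 0.09, limma) had a 95% interval from -0.17 to 0.21.

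**Figure D3:**
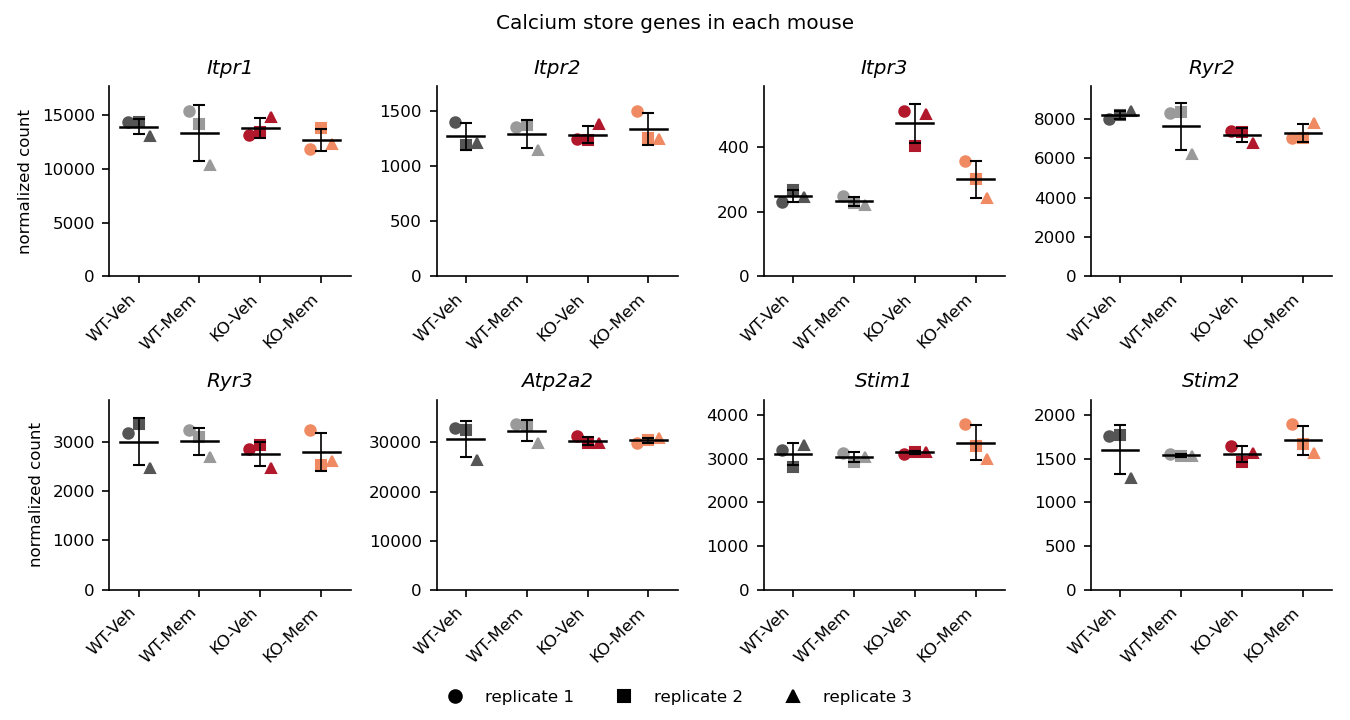
Normalized count (vertical axis, from 0) of each of the 8 genes in each of the 12 mice, by group, with marker shape for the replicate number, a line at the group mean and bars of 1 SD. The 3 KO-Veh mice stand above all others for Itpr3 (403.9 to 513.0), Ryr2 is lower in the 3 KO-Veh mice than in the 3 WT-Veh mice, and the remaining genes overlap between KO-Veh and WT-Veh.

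Ryr2, the channel of calcium-induced calcium release in heart and brain, lies on chromosome 13, from 11553102 to 12106945 on the minus strand. WT-Veh replicates read 7984, 8205 and 8399, and those of KO-Veh read 7394, 7333 and 6767, without overlap. The WT-Mem mice read 8292, 8323 and 6203 and the KO-Mem mice 7019, 6999 and 7786, with overlap. KO-Veh was 0.874 times WT-Veh, a log2 difference of -0.19 (SE 0.06), with an adjusted p of 0.218 by limma over 17671 genes (unadjusted 0.00849), so the difference did not pass the test. Without KO-Veh replicate 3, which had the lowest value of its group, the ratio was 0.898 and the adjusted p was 0.576.

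Over both treatments, the genotype average of Ryr2, that is, the mean of the 2 KO groups minus the mean of the 2 WT groups, was -0.12 on the log2 scale (SE 0.07, adjusted p of 0.230, limma). This result moved with the mouse left out, from -0.19 to -0.09. The fit without WT-Mem replicate 3 is given because of the low Ryr2 value of that mouse, so its adjusted p is a description. WT-Mem replicate 3 read 6203 in a group whose other mice read 8292 and 8323, and without it the genotype average was -0.19 with an adjusted p of 0.0257 (limma), in a fit that called 6.59% of all genes. A fit that weighted each mouse gave -0.18 with an adjusted p of 0.0167 (limma) and called 25.3% of all genes.

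Ryr3 (chromosome 2, 112631355 to 113217096, minus strand), a ryanodine receptor expressed in hippocampus and striatum among other regions, read 3176, 3350 and 2458 in the WT-Veh mice, 3226, 3100 and 2698 in the WT-Mem mice, 2850, 2931 and 2472 in the KO-Veh mice and 3230, 2532 and 2609 in the KO-Mem mice. The groups overlapped in each comparison. KO-Veh was 0.919 times WT-Veh, or 0.965 times without KO-Veh replicate 3, and KO-Mem was 0.928 times WT-Mem. The genotype average of -0.11 (SE 0.09) had an adjusted p of 0.395 (limma). With a weight per mouse it was -0.22 with an adjusted p of 0.0255 (limma). Ryr3 overlaps Aven, an apoptosis inhibitor gene on the other strand, which had an adjusted p of 0.203 (limma) in the genotype average. Chrm5, a muscarinic receptor gene and the nearest tested gene on one side of Ryr3 beyond that overlap, was called higher in KO mice there (0.64, adjusted p of 0.0477, limma), with low means of 38.14 in WT-Veh and 53.81 in KO-Veh.

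Atp2a2 (chromosome 5, 122453513 to 122502225, minus strand) encodes SERCA2, the main pump that refills the store in brain. It read 32883, 32524 and 26377 in the WT-Veh mice, 33670, 33558 and 29899 in the WT-Mem mice, 31301, 29828 and 29843 in the KO-Veh mice and 29815, 30488 and 30928 in the KO-Mem mice. WT-Veh replicate 3 was the lowest mouse. The ratio was 0.991 for KO-Veh to WT-Veh (0.999 without KO-Veh replicate 3) and 0.939 for KO-Mem to WT-Mem. The Veh-K/W log2 fold change of -0.01 (SE 0.09, limma) had a 95% interval from -0.20 to 0.18. With 6.65% over the 12 mice, Atp2a2 had the lowest CV of the 8 genes.

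Stim1 (chromosome 7, 102267806 to 102437319, plus strand) read 3186, 2811 and 3310 in the WT-Veh mice, 3138, 2911 and 3035 in the WT-Mem mice, 3113, 3147 and 3161 in the KO-Veh mice and 3782, 3298 and 2990 in the KO-Mem mice. The highest mouse was KO-Mem replicate 1, and the groups overlapped in each comparison. KO-Veh was 1.01 times WT-Veh with and without KO-Veh replicate 3. The genotype average was 0.08 (SE 0.06, adjusted p of 0.368, limma).

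Stim2 (chromosome 5, 53998499 to 54121057, plus strand), a sensor that responds to smaller falls of store calcium than STIM1, read 1758, 1768 and 1278 in the WT-Veh mice, 1556, 1527 and 1525 in the WT-Mem mice, 1642, 1459 and 1566 in the KO-Veh mice and 1892, 1664 and 1570 in the KO-Mem mice. All 3 KO-Mem mice were above all 3 WT-Mem mice, with a ratio of 1.11 and a log2 fold change of 0.15 (SE 0.08). The difference did not pass the test (adjusted p of 0.324, limma). KO-Veh was 0.971 times WT-Veh, or 0.968 times without KO-Veh replicate 3. By counts per kb of the longest transcript, Stim1 made up 68.7% of the 2 genes together in WT-Veh and 69.6% in KO-Veh.

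In Veh-K/W, which asked for the baseline difference between genotypes, the groups did not overlap for 2 of the 8 genes, Itpr3 (higher) and Ryr2 (lower), beside 20.4% of all genes. In Mem-K/W it was 1 of 8 (Stim2, higher) beside 26.2%. Of the memantine comparisons, KO-M/V had 1 of 8 (Itpr3, lower) beside 13.9% and WT-M/V had 0 of 8 beside 9.34%. The Itpr3 entries follow from how the set was chosen and say nothing about the set.

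Of the 7 genes other than Itpr3, 0 were called by limma (adjusted p under 0.05) in any of the 4 pairwise comparisons. The share of all genes called was 0.0283% in Veh-K/W and 0.068% in Mem-K/W. It was 0% for memantine in KO mice (KO-M/V) and 0.0114% for memantine in WT mice (WT-M/V), so almost no gene was called in these comparisons of 3 mice with 3. At an unadjusted p under 0.05 the count was 1 of 7 in Veh-K/W (Ryr2), beside 14.4% of all genes. It was 0 of 7 in the other 3, beside 21.0% in Mem-K/W, 8.88% for memantine in KO mice and 3.97% for memantine in WT mice. The 95% intervals of the 7 genes reached from -0.36 to 0.23 in Veh-K/W and from -0.28 to 0.32 in KO-M/V, on the log2 scale. With a weight per mouse, which called 27.8% of all genes in Mem-K/W, Ryr3 (-0.26, adjusted p of 0.0208, limma) and Atp2a2 (-0.12, adjusted p of 0.0383, limma) were called lower there. The median absolute log2 fold change of the 7 was 0.02 in Veh-K/W, beside 0.13 for all genes, and 0.09 in Mem-K/W, beside 0.16. The 7 genes had means of 1297 or more, while all genes include many of lower level. A filter at a mean of 50 gave 0.11 in Veh-K/W and 0.13 in Mem-K/W for all genes.

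Over all 12 mice, the genotype average called 10.5% of all genes and 0 of the 7, with 0 of 7 also at an unadjusted p under 0.05, beside 29.4% of all genes (limma). Their log2 fold changes ran from -0.12 (Ryr2) to 0.08 (Stim1). The memantine average, the mean of the Mem groups minus the mean of the Veh groups, called 0% of all genes and 0 of the 7, from -0.10 (Itpr1, SE 0.08, adjusted p of 0.729) to 0.05 (Atp2a2, SE 0.06, adjusted p of 0.835). The interaction of genotype and treatment called 0% of all genes and 0 of the 7 by limma, and 0 of the 7 had an unadjusted p under 0.05 in either of these contrasts, beside 8.68% of all genes for the memantine average and 4.76% for the interaction.

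**Figure D4:**
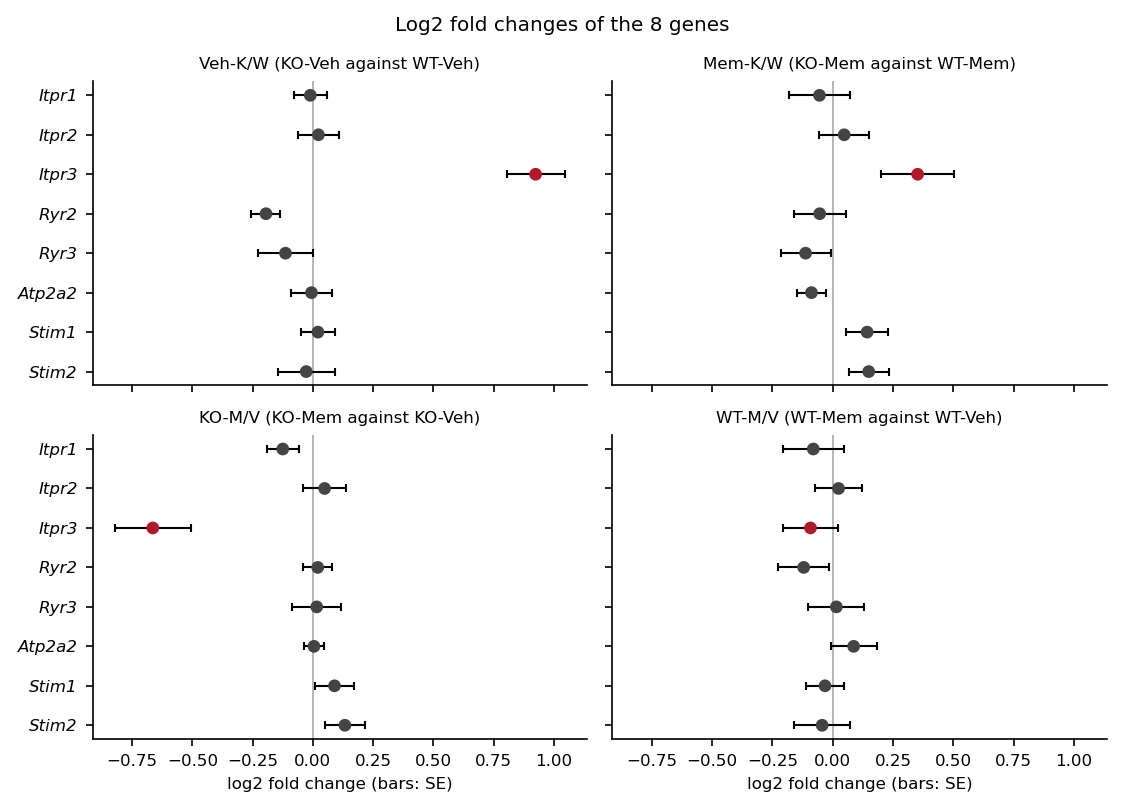
Log2 fold changes (horizontal axis) of the 8 genes in the 4 pairwise comparisons, with bars of 1 SE and Itpr3 in red. Itpr3 lies at 0.92 and 0.35 in the upper panels (genotype) and at -0.66 and -0.09 in the lower panels (memantine), while the other 7 genes lie between -0.19 and 0.15 in all 4 panels.

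A list of 110 further genes of store calcium, grouped by role, was set beside the 8, and 105 were matched to the table. Of the 104 tested over 12 mice, 5 were higher and 13 lower in KO mice by the genotype average (limma, adjusted p under 0.05). This is 17.3% of the list beside 10.5% of all genes, and at an unadjusted p under 0.05 it is 33.7% beside 29.4%. The share of all genes depends on level: among genes whose mean reached 50, limma called 13.2%. Earlier results of these data were known when the list was made, so its share is a description. By limma, 0 of the list were called in the 4 pairwise comparisons, the interaction or the memantine average. At an unadjusted p under 0.05 the counts were 19 in Veh-K/W (18.4% of the list beside 14.4% of all genes) and 27 of 104 in Mem-K/W, beside 21.0%. They were 11 for memantine in KO mice (10.7% beside 8.88%) and 6 for memantine in WT mice (5.77% beside 3.97%). The interaction had 1 (0.962% beside 4.76%) and the memantine average 15 (14.4% beside 8.68%). One gene, Gna14, had a mean of 9.52 and was not tested.

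Luminal calcium-binding proteins, which hold calcium inside the store, had the most calls, with 6 of 12 lower in KO mice and none higher. Calr, which encodes the calcium-storing chaperone calreticulin, read 10190, 11451 and 11420 in the WT-Veh mice, 9454, 9962 and 10709 in the WT-Mem mice, 8359, 8402 and 7332 in the KO-Veh mice and 4970, 5864 and 8292 in the KO-Mem mice. All 6 KO mice were below all 6 WT mice, and the genotype average was -0.57 (SE 0.10, adjusted p of 0.00766, limma). Pdia3, a disulfide isomerase that works with calreticulin, was also lower in all 6 KO mice (3332 to 4207) than in all 6 WT mice (4277 to 4767), a difference of -0.27 on the log2 scale (SE 0.06, adjusted p of 0.0153, limma).

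Hspa5, the chaperone BiP, fell by 0.47 on the log2 scale (SE 0.13, adjusted p of 0.0357, limma), with 2 KO mice, KO-Veh replicate 2 at 7627 and KO-Mem replicate 3 at 8817, inside the WT range of 7584 to 10124. Hsp90b1 (GRP94) fell by 0.30, Rcn1 (reticulocalbin) by 0.37 and Canx (calnexin) by 0.18, with adjusted p of 0.0207, 0.0306 and 0.0375 (limma). These 4 genes are chaperones or calcium-binding proteins of the same compartment. Casq2, a calsequestrin named here after its value was seen, lay at -0.57 with an SE of 0.29 and did not pass (adjusted p of 0.203, limma).

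**Figure D5:**
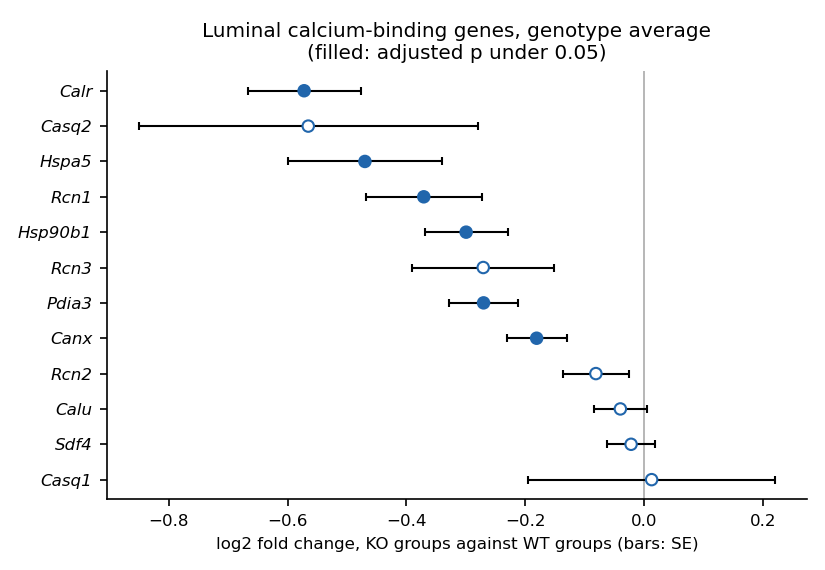
Log2 fold change of the genotype average (horizontal axis, KO groups against WT groups) for the 12 luminal calcium-binding genes, with bars of 1 SE and filled points for an adjusted p under 0.05. The 6 filled points, from Calr at -0.57 to Canx at -0.18, lie below 0, and Casq1 at 0.01 is the one gene above it.

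Among the 14 tested genes of Gq and phospholipase C, which make IP3, 2 were higher and 1 was lower (21.4%, beside 10.5% of all genes). Gna11, a Gq-family alpha subunit, rose by 0.21 (SE 0.05, adjusted p of 0.0185, limma) and Plce1, phospholipase C epsilon, by 0.38 (SE 0.10, adjusted p of 0.0347, limma). Plcd4 fell by 0.31 (adjusted p of 0.0377, limma). Plcb1, with means of 6773 in WT-Veh and 6554 in KO-Veh, and Plcb4, with 2711 and 2779, are the phospholipases C that couple to metabotropic glutamate receptors in forebrain and cerebellum, and they were not called. None of the 8 genes of IP3 metabolism was called, Itpka included (3412 in WT-Veh and 3406 in KO-Veh).

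Of the 16 IP3 receptor partners, 1 was higher and 2 were lower (18.8%, beside 10.5% of all genes). Rnf170, a ubiquitin ligase that marks activated IP3 receptors for degradation, read 885.5 to 1069 in WT-Veh and 1149 to 1333 in KO-Veh. It read 1021 to 1184 in WT-Mem, overlapping KO-Veh, and 1203 to 1528 in KO-Mem. Rnf170 rose by 0.36 in the genotype average (SE 0.07, adjusted p of 0.0131, limma). Homer1, the scaffold that ties metabotropic glutamate receptors and Shank proteins to IP3 receptors, had means of 5065 ± 483 in WT-Veh, 5217 ± 290 in WT-Mem, 4167 ± 556 in KO-Veh and 3903 ± 827 in KO-Mem (SD, n = 3 each) and fell by 0.36 (adjusted p of 0.0301, limma). Bcl2 fell by 0.26 (adjusted p of 0.0466, limma).

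Store-operated entry and pumps gave 1 call each. Orai2, an Orai channel expressed in brain, had means of 3164 ± 125 in WT-Veh, 3391 ± 258 in WT-Mem, 3673 ± 158 in KO-Veh and 4081 ± 244 in KO-Mem (SD, n = 3 each), a rise of 0.24 (adjusted p of 0.0127, limma). Orai1 had a log2 fold change of -0.19 (adjusted p of 0.151, limma) and Orai3 one of -0.05 (adjusted p of 0.642, limma). Atp2c2, a calcium pump of the secretory pathway with low values of 29.40 to 122.0, rose by 0.68 (SE 0.18, adjusted p of 0.0304, limma). The other SERCA genes Atp2a1 and Atp2a3, with overall means of 69.72 and 411.7, and the ryanodine receptor Ryr1, with 956.6, had log2 fold changes of 0.16, -0.01 and -0.06 and were not called.

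Among the 5 leak channel genes, 2 were lower (40.0%, beside 10.5% of all genes). The leak channel Tmco1 fell by 0.28 (adjusted p of 0.0303, limma) and Tmbim6, which also lets calcium leave the store, by 0.16 (adjusted p of 0.0350, limma). Mitochondrial contact and uptake had 2 of 15 genes lower (13.3%, beside 10.5% of all genes and 13.2% of genes whose mean reached 50). At these contacts, Pacs2 fell by 0.22 (adjusted p of 0.0144, limma). Rmdn3, a tether protein that binds VAPB, fell by 0.22 (adjusted p of 0.0149, limma), with 1084 to 1199 in the 6 KO mice and 1278 to 1423 in the 6 WT mice. Vapb itself had a log2 fold change of -0.19 and an adjusted p of 0.0522 (limma). None of the 8 plasma membrane extrusion genes was called.

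These counts moved with single mice. The eBayes fit without a variance trend, which also used its robust option, called 2 higher and 2 lower, beside 3.42% of all genes. Without KO-Veh replicate 3, the mouse with cerebellar markers, 2 genes of the list were higher and 4 lower, beside 2.99% of all genes called, and 6 of the 18 calls remained. Calr, Pdia3, Pacs2, Rmdn3, Rnf170 and Orai2 stayed called when any 1 mouse was left out. The count of lower genes ran from 4 to 16 over the 12 ways to leave out 1 mouse, and the mice whose loss took it to 8 or less were WT-Veh replicate 2, all 3 WT-Mem mice, KO-Veh replicates 1 and 3 and KO-Mem replicates 1 and 2. The summed oligodendrocyte, microglia, vascular, meningeal and blood lists had lower means in KO than in WT mice under each treatment. These sums were also lower in WT-Mem than in WT-Veh. Not every member was lower in KO mice: the pericyte gene Pdgfrb had means of 1156 in WT-Veh, 975 in WT-Mem, 1058 in KO-Veh and 1063 in KO-Mem. The astrocyte sums overlapped, with 109637 to 110108 in WT-Veh and 101610 to 110363 in KO-Veh, but most of each sum is Slc1a2 (mean 73980). Aqp4 was lower in KO-Veh (2627 to 3595) than in WT-Veh (3875 to 4690), without overlap. Aldh1l1 was also lower (1805 to 1985 against 1999 to 2100). The rest of the astrocyte list overlapped, and Slc1a3 had a higher mean in KO-Veh (15578) than in WT-Veh (14812). The summed oligodendrocyte markers were 286362 to 356087 in WT-Veh, 256660 to 302204 in WT-Mem, 248730 to 266056 in KO-Veh and 205765 to 245518 in KO-Mem. The summed red blood cell markers had means of 21749 in WT-Veh, 14001 in WT-Mem, 13502 in KO-Veh and 8522 in KO-Mem. In the same order, smooth muscle and pericyte markers had means of 4998, 4527, 4082 and 3444, microglia 8456, 7815, 7515 and 6535, and meningeal fibroblasts 3379, 2548, 2490 and 2122. The part of these lists in the lower store genes was not tested.

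Memantine gave no call in the list. The 5 smallest p-values of the memantine average were those of Atp2c2 (log2 fold change 0.72, SE 0.18, adjusted p of 0.373, limma), Gna11 (0.16), Vapb (-0.19), Itpka (0.17) and Letm1 (0.19), the last 4 with adjusted p of 0.436 to 0.454 (limma). Atp2c2 had means of 32.52 in WT-Veh, 52.75 in WT-Mem, 49.82 in KO-Veh and 89.79 in KO-Mem, near the low end of the table.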

How the data were processed

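RNA of 12 mice was sequenced as poly-A libraries (paired reads, an Illumina kit that does not mark strand). The deposited signal values are gene counts that the authors estimated with Salmon (version 1.1.0) against GRCm38 transcripts, brought to gene level through tximport and then scaled between mice with the normalization of DESeq2. For that step by the authors, the submitters' processing notes name DESeq2 1.26.0 and R 3.6.2, while the methods name other versions of both. The values are not whole numbers, whole reads could not be recovered, and the depth of each mouse is therefore not known here. The count test planned for raw counts was not run.

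Groups and replicate numbers came from the sample titles, and 0 columns were left unused. Of 19312 genes, 19295 matched GENCODE M21, which gave symbols, positions and lengths. Genes with a mean of at least 10 over the mice of a fit were tested with limma 3.58.1 (lmFit, eBayes with trend; R 4.3.3) on log2(value + 1), with Benjamini-Hochberg adjustment over all genes tested and a threshold of 0.05. Fold changes on this scale understate the change of low genes. Pairwise comparisons used 6 mice each, and the interaction and the genotype and memantine averages used all 12. Pairwise comparisons that share a group are not independent. Group errors are SD of normalized counts, or of percent shares where these are given. The script was tested on simulated data. Tables and motif counts were made with Python 3.11.15 (pandas 2.3.3, numpy 2.4.6).

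The 8 genes, the list of further calcium store genes and the marker lists were chosen with earlier results of these data known. Named further genes are those called in any comparison, the 5 smallest p-values of each average, and a fixed group of known partners (Orai1, Orai2, Orai3, Ryr1, Atp2a1, Atp2a3, Plcb1, Plcb4, Itpka, Homer1 and Calr). The genes nearest to Itpr3 on each side, and the 10 genes most like it, were named by rule. Casq1 and Casq2 were named after their values were seen. Alternatives were another pseudocount, other filters, other scalings, a replicate block, eBayes without trend, a weight per mouse, all 12 mice in one fit and leaving out each mouse. The fit without trend also used the robust option of eBayes. Marker sums add the normalized counts of a fixed list per mouse. Each mouse is 1 animal.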

Additional observations from a re-analysis of the deposited data

Results flagged for a closer look

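Cerebellar markers outside the main measurement stood well above the WT-Veh mice in KO-Veh replicate 3 and, for 1 gene, in KO-Mem replicate 1. A value was listed when it was at least 50 and at least 3 times the highest WT-Veh mouse. In KO-Veh replicate 3 the Purkinje cell genes Pcp2, Ppp1r17 and Arhgef33 read 379.7, 129.0 and 165.3 normalized counts. Pcp2 read 6.974 to 21.54 and Ppp1r17 10.63 to 27.54 in the other 11 mice. The granule cell genes Gabra6, Cbln3 and Fat2 read 253.9, 744.8 and 949.7 in the same mouse, and at most 12.88, 64.99 and 66.09 in the others. Arhgef33 also read 153.3 in KO-Mem replicate 1, beside 11.87 for Pcp2. Itpr1, a gene abundant in Purkinje cells, was 1.12 times as high in KO-Veh replicate 3 as in the mean of replicates 1 and 2. The ratio was similar for Itpr2 (1.11) and for Itpr3 (1.1), which read 504.3 there against a mean of 458.5. Whether cerebellar tissue entered this sample was not tested.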

How the results depend on the processing

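For Itpr3, whose values are a description, leaving out 1 mouse gave log2 fold changes of 0.86 to 1.03 in Veh-K/W, 0.22 to 0.50 in Mem-K/W, -0.80 to -0.52 for memantine in KO mice and -0.14 to -0.04 in WT mice. With a weight per mouse, limma called 2 of the other 7 genes in Mem-K/W, beside 27.8% of all genes, and 2 in the genotype average, beside 25.3%, and leaving out 1 mouse called 0 to 1 in the genotype average. Of the further calcium store genes (5 higher and 13 lower), robust eBayes without trend called 2 higher and 2 lower. A weight per mouse called 23 lower, and leaving out 1 mouse called 2 to 6 higher and 4 to 16 lower. The cause was not tested.

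Signs near 0 turned: the genotype average of Atp2a3 was 0.013 with quantile normalization and 0.0030 with scaling to the sum. Leaving out 1 mouse gave -0.13 to 0.099 for Atp2a3, -0.070 to 0.34 for Atp2a1, -0.14 to 0.091 for Ryr1, and -0.0062 to 0.074 for Atp2a2 in the memantine average.

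Counts over all genes moved more. The counts of 5 and 12 for genotype (vehicle, memantine) and 0 and 2 for memantine (KO, WT mice) became 2, 4, 0 and 1 with the replicate block, 2, 636, 0 and 0 with all 12 mice in one fit, and 11, 4898, 0 and 2 with a weight per mouse. Other settings gave 2 to 3 in Veh-K/W (pseudocount of 5, filter at 50), 1 in Mem-K/W (eBayes without trend) and 0 to 1 in WT-M/V. Leaving out 1 mouse gave 2 to 53, 2 to 1911, 0 to 97 and 1 to 3 in the same order, and 528 to 3263 in the genotype average (1856 over 12 mice, 603 without trend, 4467 with weights), 0 to 120 in the memantine average (0, and 102 with weights) and 0 to 4 in the interaction (0).

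Replicate numbers did not pair the mice: over 18 pairs with the same number, deviations from the group means had r from -0.175 to 0.0802. With the replicate block, 0 of the other 7 genes were called in each comparison. The design is balanced, so the block leaves the fold changes as they are. The depth of each mouse is not known, so precision of low genes such as Atp2c2 is limited by the spread of 3 mice.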
